A study of Drosophila melanogaster with 48 samples.

Results

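Ribosome-bound RNA of Drosophila melanogaster astrocytes was examined for 7 cytochrome P450 genes, Cyp6a8, Cyp6a17, Cyp6a21, Cyp6a23, Cyp6t1, Cyp28d1 and Cyp309a1, of the 17558 genes counted. They were chosen by name from genes that the study lists with rhythm values from these same libraries, so their rhythm is what selected them and is given below as a description. All 7 averaged at least 20 counts per library and entered the fits on 9392 genes, although Cyp6a8, with an average of 22.1 counts, only just did so.

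Cytochrome P450s are heme enzymes of the endoplasmic reticulum that insert an oxygen atom into small lipophilic molecules, with electrons passed on by the NADPH reductase Cpr or by cytochrome b5. The CYP6, CYP28 and CYP309 families belong to an insect branch best known for clearing plant toxins and insecticides. In flies the regulator CncC, with its partner maf-S, and the nuclear receptor Hr96 drive many genes of this kind. Astrocytes are the glia that contact synapses and take up neurotransmitters.

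In the RefSeq annotation of Release 6 plus ISO1 MT, Cyp6a17 lies on 2R from 14873953 to 14875739, Cyp6a23 from 14875829 to 14877654, Cyp6a21 from 14885264 to 14886947 and Cyp6a8 from 14887171 to 14889010. They sit in a run of 8 Cyp6a genes, with 89 bases between Cyp6a17 and Cyp6a23 and 223 bases between Cyp6a21 and Cyp6a8. Cyp6t1 lies on the X from 21517434 to 21519218. On 2L, Cyp309a1 spans 2562483 to 2564830, 55 bases from Cyp309a2, and Cyp28d1 spans 5210460 to 5212445, 1114 bases from Cyp28d2. The annotation places CG7742 over part of Cyp28d1 and the RNA lncRNA:CR45082 over part of Cyp6t1. The strand setting of the counting is not given in the sources used here, so reads of overlapping genes cannot be told apart by strand.

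The flies carried elav-Gal80, eaat1-Gal4 and UAS-EGFP-L10a in every sample, so that astrocytes bore a tagged ribosomal protein and its expression in neurons was blocked. They were entrained to 12 h of light and 12 h of darkness and frozen every 4 h from 0 to 44 h in constant darkness (DD), in 2 biological replicates from independent crosses, which gave 12 time points and 24 libraries. There was no genotype or treatment contrast, and an age for these flies was not given in the sources used here. The driver is known to act mostly in astrocytes and in some cortex glia, each library pooled many heads, and in bulk RNA fewer cells of a type and less RNA per cell cannot be told apart. Of 8 astrocyte markers only Gabat, the GABA transaminase, could be paired with an identifier, and its level was 54.7 to 143 CPM (counts scaled to a library of 1000000).

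Libraries held 6371034 to 37267216 counts on genes. In 2 libraries the tallies went against those of their own replicate. Alignments of reads that matched more than 1 place made up 21.7 to 36.9% of those tallied in 11 libraries of replicate 1 but 9.47% in its 16 h library, and 3.92 to 7.33% in 11 libraries of replicate 2 but 47.0% in its 28 h library. In the latter 10 genes held 49.6% of the counts, against at most 14.6% in the other libraries of replicate 2. At 28 h in replicate 1, 1 of the 2 data sets held only 91 counts, and the values of that library are those of the other. The sample titles also carry letters. In replicate 1 these are a or b, depending on the hour, but d and e for the 2 data sets of 16 h. In replicate 2 they are c and g at every hour. What the letters stand for was not given in the sources used here.

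The levels of the 7 genes spanned a wide range. Per kilobase of annotated span, introns included, the median over 24 libraries was 69.1 CPM for Cyp28d1, 53.7 for Cyp309a1, 24.8 for Cyp6a17, 16.8 for Cyp6t1, 4.06 for Cyp6a23, 3.59 for Cyp6a21 and 0.612 for Cyp6a8. Cyp28d1 was above Cyp309a1 in 24 of 24 libraries, Cyp309a1 above Cyp6a17 in 19, and Cyp6a17 above Cyp6t1 in 21. Cyp6a23 and Cyp6a21 did not differ beyond their spread, with Cyp6a23 the higher in 15 of 24 libraries. Within the Cyp6a run, Cyp6a17 was above its next neighbour Cyp6a23 in every library, by 3.5 to 15.0 times per kilobase (median 6.44).

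**Figure D1:**
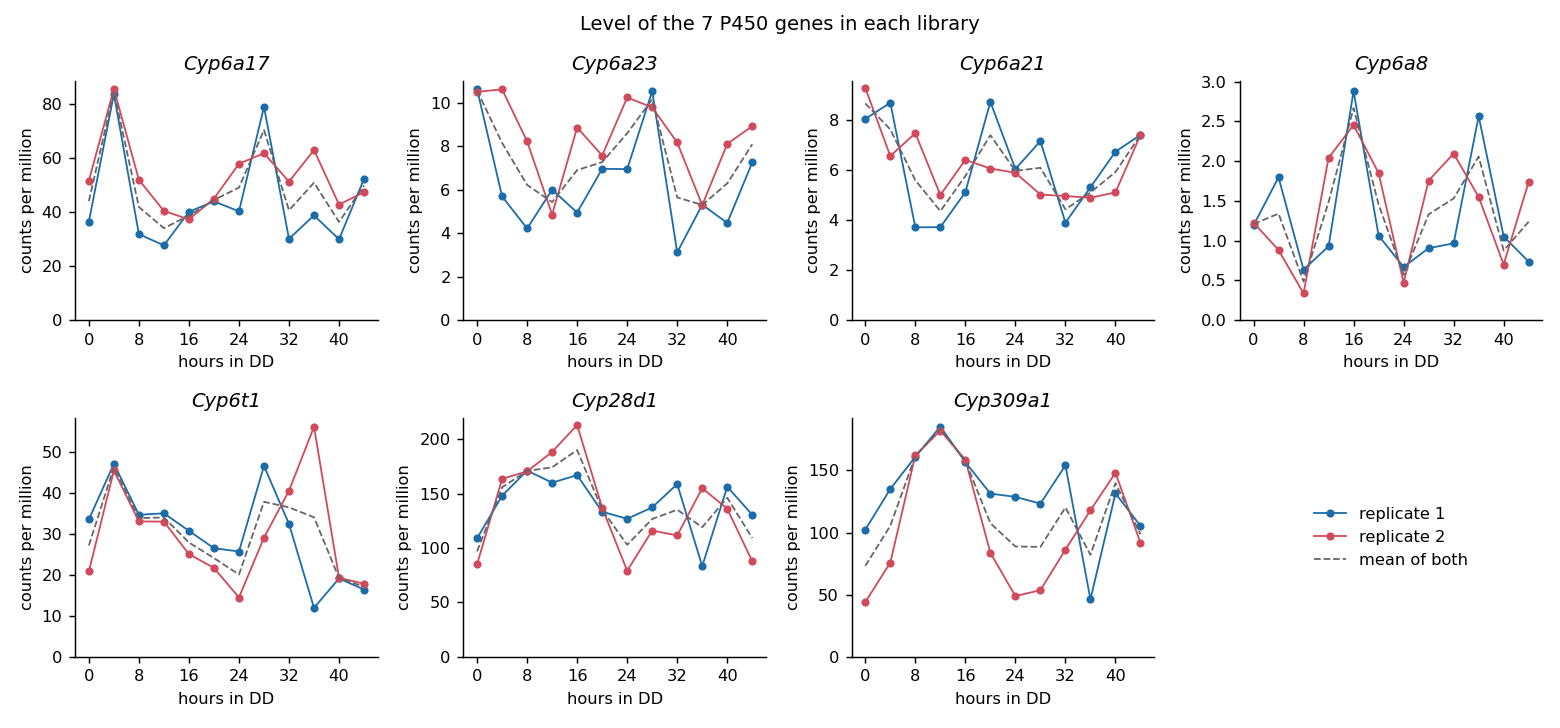
Level of each gene (CPM, y axis from 0) against hours in DD, with 1 point per library, blue for replicate 1 and red for replicate 2, and the mean of both dashed. Cyp6a17 is highest at 4 h in both replicates, Cyp309a1 at 12 h in both, and at 36 h the replicates of Cyp6t1 sit at 11.9 and 56.2.

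Cyp6a17, known in flies for its part in temperature preference, was high 4 h after the start of each day in DD, by the mean of both replicates. At 4 h it stood at 83.5 CPM in replicate 1 and 85.4 in replicate 2, and at 28 h at 78.8 and 61.7. At 36 h replicate 2 stood as high as at 28 h, at 62.9, whereas replicate 1 stood at 38.7. At 12 h the libraries stood at 27.6 and 40.3, and at 40 h at 29.8 and 42.7. The 2 libraries of 4 h were the highest of all 24, and neither time point at 12 or 40 h overlapped 4 or 28 h. Here and for the genes below, the hours set against each other were picked as high and low from these same values. Their separation is therefore a description and not a test.

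Cyp6a23, its neighbour, had a broader course. It stood at 10.6 CPM in replicate 1 and 10.5 in replicate 2 at 0 h, and at 10.5 and 9.78 at 28 h. Its lowest library was that of 32 h in replicate 1, at 3.11, but replicate 2 stood at 8.17 at the same hour. At 12 h (5.99 and 4.85) and 36 h (5.30 and 5.28) both replicates were low, without overlap with 0 or 28 h.

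Cyp6a21 stood at 8.04 and 9.27 CPM at 0 h and at 7.40 and 7.39 at 44 h, against 3.71 and 4.99 at 12 h and 3.89 and 4.96 at 32 h. At 24 h, by contrast with 0 h, replicate 1 stood at 6.03 and replicate 2 at 5.88. Cyp6a8, a gene known for induction by caffeine and barbiturates, was the rarest, with 4 to 53 counts per library. It was highest at 16 h, at 2.88 and 2.45, and low at 8 h (0.634 and 0.335) and 24 h (0.667 and 0.471), and these groups did not overlap. At 40 h, the same clock hour as 16 h, it stood at only 1.05 and 0.699, so the high of 16 h did not recur on the second day. The 2 data sets of a library differed for Cyp6a8 by a median of 0.41 on the log2 scale, beside 0.05 for Cyp28d1.

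Cyp6t1, on the X, was high at 4 h in both replicates, at 47.1 and 45.5 CPM. It was low at 40 h (19.1 and 19.3) and 44 h (16.4 and 17.8), where the replicates lay close together. At 36 h the replicates held both extremes of the whole series, 11.9 in replicate 1 and 56.2 in replicate 2. The data sets behind these values repeated them: 14.1 and 11.2 CPM of the data set total in replicate 1, and 54.2 and 54.1 in replicate 2.

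Cyp28d1, which in flies is tied to nicotine resistance, ran from 79.1 to 213 CPM with a median of 137. By the mean of both replicates it was highest at 16 h (167 and 213) and low at 0 h (109 and 85.0) and 24 h (127 and 79.1). Replicate 1 alone was highest at 8 h, at 171, and lowest at 36 h, at 83.3. The 16 h libraries lay above all libraries of 0 and 24 h.

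Cyp309a1 ran from 44.0 to 185 CPM with a median of 126, and its replicates took different courses. At 8, 12 and 16 h they nearly coincided, at 161 and 162, 185 and 182, and 157 and 159. At 0 h they stood at 102 and 44.0, at 24 h at 129 and 48.8, and at 28 h at 123 and 53.6. Replicate 2 therefore covered a 4.14-fold range, with its lows at 0, 24 and 28 h, while 11 of the 12 libraries of replicate 1 stood at 102 or more and that of 36 h at 46.3.

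JTK_CYCLE, a rank test against cosine curves, was run on quantile normalized counts with periods of 20, 24 and 28 h. Its adjusted p is corrected within a gene, over the curves tried, and not over genes. With limits of 0.05 on this adjusted p and of 0.5 on its amplitude it called 265 genes, or 2.82% of the 9392 tested. Among the 7 P450 genes 4 lay inside this limit, Cyp6a17 (adjusted p 0.0109, 24 h), Cyp6t1 (0.0134, 28 h), Cyp309a1 (0.0134, 28 h) and Cyp28d1 (0.0201, 24 h). Just outside lay Cyp6a21 (0.0516), Cyp6a23 (0.0616) and Cyp6a8 (0.0948, 20 h). After Benjamini-Hochberg adjustment over all genes none of the 7 passed, with 0.820 for Cyp6a17, 0.882 for Cyp6t1 and Cyp309a1, and 1 for the other 4. With the replicate as a block Cyp6a21 and Cyp6a23 also lay inside the first limit, and the calls over all genes rose to 439. Since rhythm chose these genes, nothing is read from the count.

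A 24 h cosine curve fitted by edgeR's quasi-likelihood test called 31 genes after Benjamini-Hochberg adjustment over all genes, 0.33% of those tested, and 0 of the 7. With an unadjusted p under 0.05 there were 6 of the 7, and 506 of all genes, and DESeq2 called 0 of the 7 as well. The exception was Cyp6a8, with an unadjusted p of 0.237 in edgeR. Fitted log2 amplitudes ran from 0.27 ± 0.10 (SE, 24 libraries) for Cyp28d1 to 0.49 ± 0.14 for Cyp6t1, or 1.45 to 1.96-fold from trough to peak. The clock genes per and tim, fitted in the same way, had log2 amplitudes of 1.19 ± 0.10 and 1.77 ± 0.18.

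Peak times of the fitted curve were spread over much of the day. Within the Cyp6a run, those of Cyp6a21, Cyp6a23 and Cyp6a17 lay close together. Only Cyp6a8 lay far from them, and its cosine fit had an unadjusted p of 0.237 by edgeR. Cyp6a21 peaked at 22.8 ± 0.88 h (SE), Cyp6a23 at 0.02 ± 1.01 h and Cyp6a17 at 2.72 ± 1.20 h, all in hours of DD modulo 24. Cyp6t1 followed at 6.98 ± 1.09 h, Cyp28d1 at 11.7 ± 1.44 h, Cyp309a1 at 12.7 ± 1.53 h and Cyp6a8 at 14.9 ± 2.39 h. For comparison per, a repressor of the clock, peaked at 14.1 ± 0.31 h and its partner tim at 15.7 ± 0.40 h. The fitted peaks of Cyp28d1 and Cyp309a1 lay 2.44 h (95% interval −0.51 to 5.39 h) and 1.35 h (−1.80 to 4.51 h) before that of per. These intervals reach to both sides of per, so an order was not shown. In replicate 1 alone the 2 peaks had SE of 5.86 and 11.3 h. The fitted peak of Cyp6a17 lay 11.4 h (8.87 to 13.9 h) from that of per, on about the opposite side of the day. It fell 11.4 h after per in replicate 1 and 9.83 h before it in replicate 2, so an order was not shown here either.

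**Figure D2:**
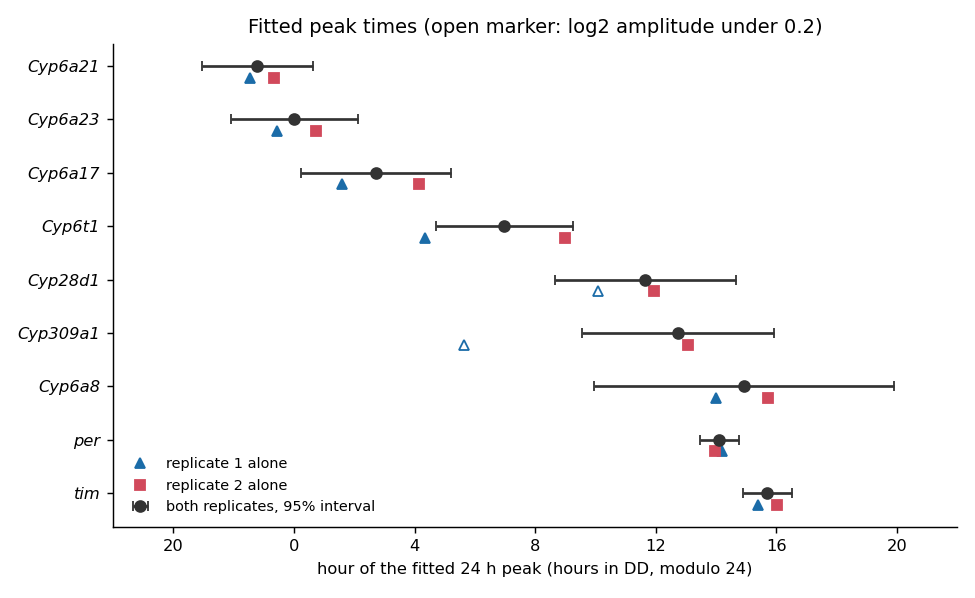
Hour of the fitted 24 h peak (x axis, hours in DD modulo 24) for the 7 genes and the clock genes per and tim, from both replicates with its 95% interval (black) and from each replicate alone. The 3 genes at the top peak between 22.8 and 2.72 h, and the open triangle of Cyp309a1 at 5.63 h comes from a curve with a log2 amplitude of 0.08.

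Next-door genes were compared pair by pair, as differences of peak time with no test. Cyp6a17 peaked 2.70 h after Cyp6a23 (95% interval −0.01 to 5.41 h), by 2.17 h in replicate 1 and 3.42 h in replicate 2. Cyp6a21 and its neighbour Cyp6a8 lay 7.88 h apart (2.50 to 13.3 h), by 8.55 h and 7.63 h in the replicates. The curve of Cyp6a8 accounted for only 10.8% of its variance, and its peak stood at 18.1 h on the first day and 10.3 h on the second. The order of Cyp6a21, Cyp6a23 and Cyp6a17 was the same in each replicate. However, Cyp6a21 lay only 1.22 h before Cyp6a23 (95% interval −1.21 to 3.66 h), and on the first day both peaked at 23.8 h. An order of Cyp6a21 and Cyp6a23 was therefore not shown, and the interval between Cyp6a23 and Cyp6a17 also reached 0.

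Genes next to these but outside the chosen set filled in the picture. Cyp6a22, beside Cyp6a17, peaked at 5.34 ± 1.36 h, and Cyp6a9, between Cyp6a23 and Cyp6a21, at 3.63 ± 0.99 h, with JTK_CYCLE adjusted p of 0.194 and 0.0516. Along the chromosome the fitted peaks of 6 of the 8 genes of the Cyp6a run therefore read 5.34, 2.72, 0.02, 3.63, 22.8 and 14.9 h, with Cyp6a19 and Cyp6a20, on either side of Cyp6a9, not analysed here. On 2L, Cyp309a2 peaked at 13.3 ± 1.70 h, within 0.56 h (95% interval −1.40 to 2.52 h) of Cyp309a1.

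For 3 genes the fitted amplitudes lay far apart in the replicates. In replicate 1 the log2 amplitude was 0.50 ± 0.13 for Cyp6a21 but 0.08 ± 0.23 for Cyp309a1 and 0.09 ± 0.13 for Cyp28d1, whereas in replicate 2 it was 0.22 ± 0.11, 0.87 ± 0.13 and 0.46 ± 0.15 (SE, 12 libraries each). The amplitudes of the other 4 lay closer together, at 0.34 and 0.39 for Cyp6a8, 0.42 and 0.33 for Cyp6a17, 0.49 and 0.40 for Cyp6a23, and 0.52 and 0.66 for Cyp6t1. The cosine accounted for 82.3% of the variance of Cyp309a1 in replicate 2 and 1.26% in replicate 1. The difference itself was tested as the interaction of replicate and cosine in edgeR. Cyp309a1 had an unadjusted p of 0.0115 and an adjusted p of 0.985. The unadjusted p was 0.225 for Cyp28d1 and 0.337 for Cyp6a21, so for these 2 genes a difference was not shown. It was 0.0526 for Cyp6t1, whose fitted peak stood at 4.35 h in replicate 1 and 8.98 h in replicate 2. For Cyp6a17, Cyp6a23 and Cyp6a8 it was 0.405 to 0.977. No gene passed after adjustment (0%), with 287 genes, or 3.06%, at an unadjusted p under 0.05.

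The first and second day in DD were then compared, with the 6 clock hours as a factor. None of the 7 genes passed, and neither did any of all genes tested (0%) in edgeR, limma called 0 genes, and DESeq2 called 458 genes but none of these 7. Without the 32 h library of replicate 2 edgeR called 352 genes, again none of these 7. At an unadjusted p under 0.05 edgeR gave 1341 genes (14.3%), and among the 7 only Cyp28d1, with a log2 change of −0.30 ± 0.12 (SE), an unadjusted p of 0.0218 and an adjusted p of 0.292. Cyp28d1 was lower on day 2 in 11 of 12 pairs of libraries of the same replicate and clock hour. The estimates were −0.31 ± 0.24 for Cyp309a1, −0.27 ± 0.19 for Cyp6t1, −0.15 ± 0.12 for Cyp6a21, −0.14 ± 0.32 for Cyp6a8, −0.03 ± 0.18 for Cyp6a23 and 0.08 ± 0.13 for Cyp6a17. The median of the 7 was −0.15, beside 0.00 over all genes.

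Between the replicates, with the 12 time points as a factor, Cyp6a23 and Cyp6a17 were higher in replicate 2 and the other 5 genes did not pass. Cyp6a23 was higher by a log2 of 0.46 ± 0.15 (SE, adjusted p = 0.0389 by edgeR) and at 8 of 12 time points, and Cyp6a17 by 0.31 ± 0.11 (adjusted p = 0.0455) and at 9 of 12. The background is large, with 16.9% of all genes higher and 14.7% lower in replicate 2. Of the others, Cyp309a1 stood at −0.41 ± 0.22 (adjusted p = 0.142), and Cyp6a8, Cyp6a21, Cyp6t1 and Cyp28d1 between −0.08 and 0.12.

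Both calls were close to the limit. That for Cyp6a17 was lost when either library of 0, 8, 12, 24, 32, 36 or 40 h was left out, and that for Cyp6a23 without either library of 4, 8, 16, 24, 32, 40 or 44 h, with adjusted p of at most 0.0920 and 0.0804. Without the 28 h library of replicate 2 and the 16 h library of replicate 1, which stand apart, Cyp6a17 kept its call and Cyp6a23 stood at 0.49 (adjusted p = 0.0532). Both genes belong to a run of related copies, and the share of alignments that were not unique, which HTSeq-count tallies apart from genes, differed between the replicates as given above. Its part in the result was not tested.

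**Figure D3:**
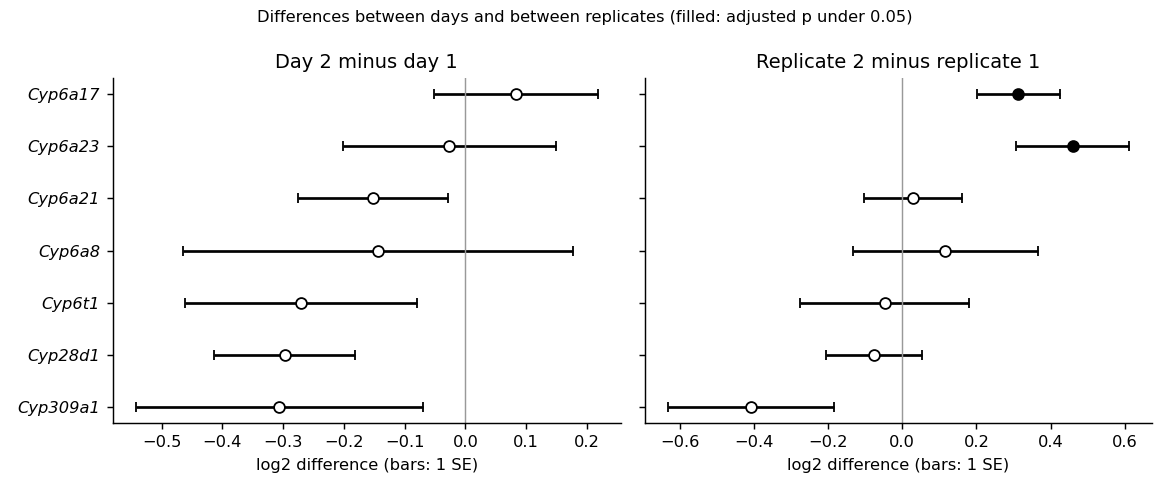
Log2 difference of each gene between day 2 and day 1 (left) and between replicate 2 and replicate 1 (right), from edgeR, with bars of 1 SE and filled points for an adjusted p under 0.05. Only Cyp6a23 (0.46) and Cyp6a17 (0.31) are filled, both on the right.

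Covariation was measured on the difference in log2 CPM between replicate 1 and replicate 2 at each of the 12 time points. This removes the course over hours that both replicates share. A course that differs between them stays in the values, as for Cyp309a1, with fitted log2 amplitudes of 0.08 and 0.87. Pearson's r was computed for the 21 pairs of the 7 genes. Values were high among the 3 genes outside the Cyp6a run and low among the 4 genes within it. Among Cyp6t1, Cyp28d1 and Cyp309a1, which lie on the X and at distant places of 2L, r was 0.66 to 0.83. Among the 6 pairs within the Cyp6a run r ran from −0.33 to 0.51 with a median of 0.10, and among the 12 pairs with 1 gene in the run and 1 outside from −0.38 to 0.38. The difference between these groups of pairs was not tested. The genes also differed in technical spread. Between the 2 data sets of a library, the median absolute log2 difference was 0.41 for Cyp6a8, 0.19 for Cyp6a23 and 0.17 for Cyp6a21. It was 0.07 for Cyp6a17, 0.13 for Cyp6t1 and 0.05 for Cyp28d1 and Cyp309a1. The part of this spread in the values of r was not tested. For scale, each of the 7 genes had a median r of 0.00 to 0.03 with all other genes tested, and 177 pairs of neighbouring genes with known identifiers had a median of 0.13 (5th to 95th percentile −0.47 to 0.76).

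**Figure D4:**
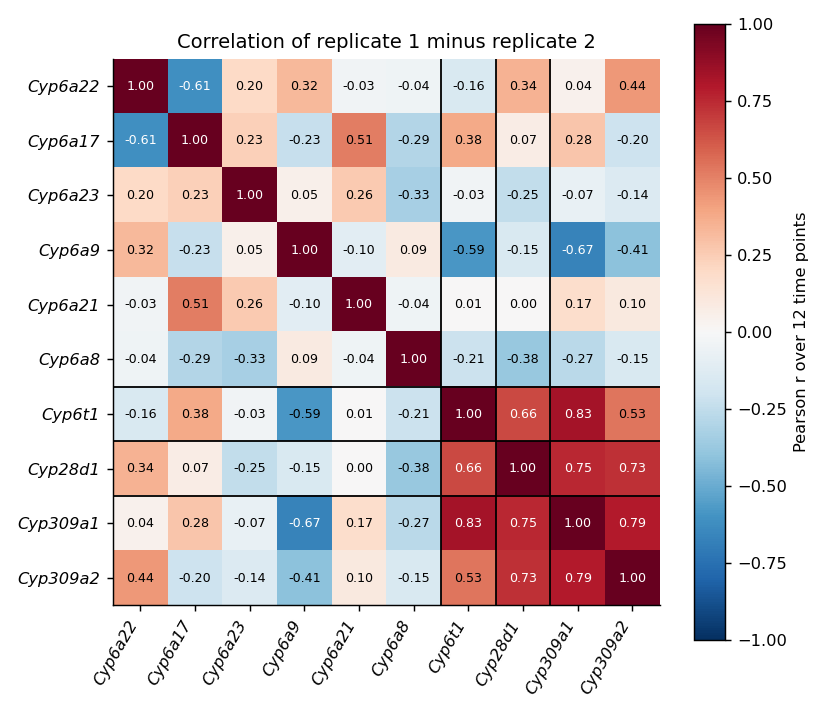
Pearson's r of the replicate difference (log2 CPM, replicate 1 minus replicate 2, 12 time points) for the 7 genes and 3 neighbours, in chromosome order within each block, from blue (−1) to red (1). The lower right block, from Cyp6t1 to Cyp309a2, holds values of 0.53 to 0.83, and the Cyp6a block holds none above 0.51 off the diagonal.

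Of the 21 pairs only Cyp6t1 and Cyp309a1 passed, with r = 0.83 (permutation p = 0.0017, adjusted p = 0.0357, two-sided, 100000 permutations) and Spearman's rho = 0.59 (permutation p = 0.0454, adjusted p = 0.477). Cyp28d1 and Cyp309a1 had r = 0.75 (adjusted p = 0.0533) and rho = 0.69 (adjusted p = 0.320), and Cyp6t1 and Cyp28d1 r = 0.66 (adjusted p = 0.202) and rho = 0.23 (adjusted p = 0.858). No pair passed by rho, and 3 pairs had an unadjusted permutation p under 0.05 by r. The permutations treat the differences as exchangeable over hours, which a course that differs between the replicates would go against. Without the 2 time points farthest from the median, 36 and 24 h, the 3 values of r were 0.50, 0.37 and −0.17, so these relations rest on those hours.

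At 36 h all of these genes were lower in replicate 1, by a log2 difference of −2.23 for Cyp6t1, −1.35 for Cyp309a1 and −0.90 for Cyp28d1. At 24 h all were higher in replicate 1, by 0.82, 1.40 and 0.68. Without the 36 h libraries r was 0.63 for Cyp6t1 and Cyp309a1 (adjusted p = 0.558), 0.52 for Cyp28d1 and Cyp309a1 and 0.14 for Cyp6t1 and Cyp28d1, and no pair passed. The 36 h libraries held 17360822 counts in replicate 1 and 26094628 in replicate 2. Markers of cell types differed at that hour to unequal extents. The log2 difference was −3.80 for Cyp4g1 of oenocytes, 2.47 for to of the fat body and 0.79 for Tret1-1 of surface glia. It was smaller for inaD of photoreceptors (−0.47), the astrocyte marker Gabat (−0.32), Indy of surface glia (0.26) and NimC1 of hemocytes (−0.24). The part of cell content in the result was not tested.

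**Figure D5:**
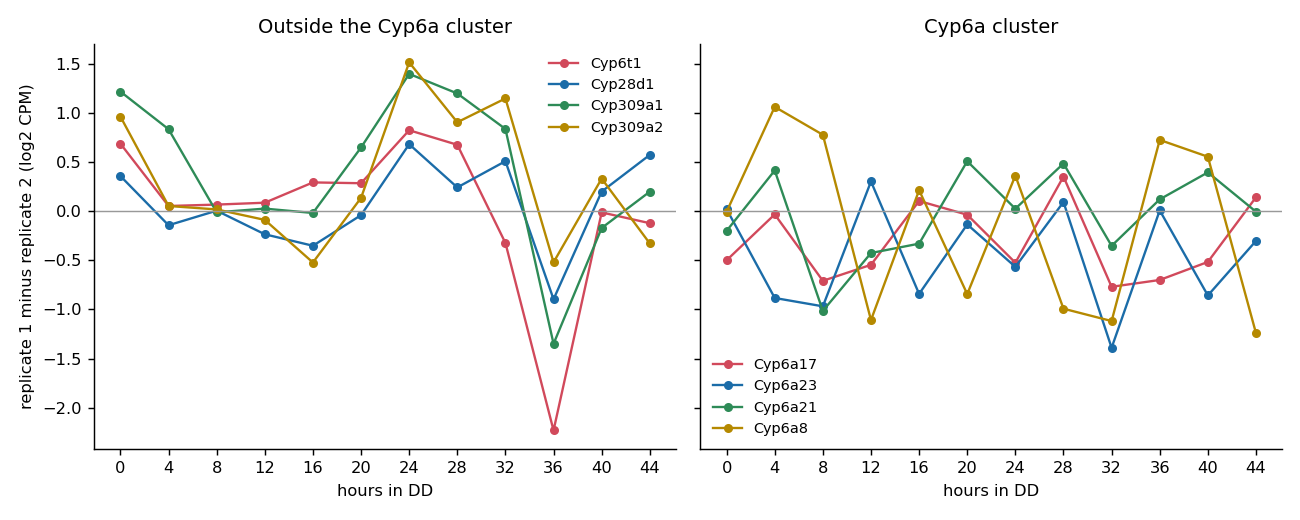
Replicate 1 minus replicate 2 (log2 CPM) against hours in DD for Cyp6t1, Cyp28d1, Cyp309a1 and the neighbour Cyp309a2 (left) and for the 4 genes of the Cyp6a run (right). The left panel shows the shared dip at 36 h, down to −2.23 for Cyp6t1, and shared positive values at 24 h.

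Direct neighbours were then set beside these pairs, 9 pairs of a member and a P450 gene outside the set within 20 kb, chosen after the values of the members had been seen. Cyp309a1 and Cyp309a2, 55 bases apart, had r = 0.79 (permutation p = 0.0015, adjusted p over the 9 pairs = 0.0134) and rho = 0.78 (adjusted p = 0.0354), and r remained at 0.73 without 36 and 24 h. Within the Cyp6a run no neighbour pair passed. Cyp6a17 and Cyp6a23, only 89 bases apart, had r = 0.23 and rho = 0.33, Cyp6a21 and Cyp6a8 r = −0.04 and rho = 0.15, and Cyp6a17 and Cyp6a22 r = −0.61 (adjusted p = 0.111) and rho = −0.50.

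Over the 24 libraries themselves, which share hours and depth, r between log2 levels is given as a description. It was 0.82 for Cyp28d1 and Cyp309a1, 0.87 for Cyp309a1 and Cyp309a2, 0.54 for Cyp6a17 and Cyp6a23, 0.56 for Cyp6a21 and Cyp6a23, and −0.04 for Cyp6a21 and Cyp6a8. Cyp6a23 and Cyp309a1 had the lowest value of all 21 pairs, −0.50.

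The genes whose log2 levels over the 24 libraries ran most like each member, by Pearson's r, were sought among 1710 other genes with a known identifier, a set with an excess of genes of low rhythm p, because the tables that pair names with identifiers list those first. For Cyp309a1 these were CG3699 (r = 0.91), Cyp309a2 (0.87) and tobi, a glucosidase controlled by insulin signalling (0.86). For Cyp28d1 they were Ugt86Dd (0.87), a UDP-glycosyltransferase that acts after P450s and is itself tied to nicotine resistance, Cyp309a1 (0.82) and CG3699 (0.79). Cyp6t1 ran most like CG4847 (0.82), the tetraspanin gene TM4SF (0.81) and Acer (0.81). Cyp6a17 ran most like Idgf1, a secreted growth factor (0.72), SP1173 (0.72) and zormin (0.72), Cyp6a21 like CG5945 (0.75), Cyp6a23 like Cpr72Ec (0.70) and Cyp6a8 like CG14221 (0.68). None of the members of the Cyp6a run had another P450 among its 3 nearest genes.

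Other genes of the same families, genes listed as electron carriers and regulators were read by list. Of the 8 other CYP6, CYP28 and CYP309 genes with an identifier, Cyp6a2, Cyp6a9, Cyp6a13, Cyp6a15Psi, Cyp6a22, Cyp6d5, Cyp6g1 and Cyp309a2, none was called between days, between replicates, by the cosine fit or by JTK_CYCLE, while 3 had an unadjusted p under 0.05 in the cosine fit. Their median log2 difference was −0.20 between days and −0.10 between replicates, beside 0.00 and −0.01 over all genes. Of the 4 genes listed as electron carriers only Cyt-b5-r, a cytochrome b5 relative, could be matched, and it was lower in replicate 2 by a log2 of −0.36 ± 0.11 (adjusted p = 0.0316 by edgeR). The reductase Cpr and cytochrome b5 itself were not matched. Whether Cyt-b5-r passes electrons to P450s was not tested. Of 8 regulators maf-S and Hnf4 could be matched, and maf-S was higher in replicate 2 by 0.41 ± 0.08 (adjusted p = 0.00399), whereas neither passed between days.

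Markers of cell types were set beside the 3 genes outside the Cyp6a run. Only 7 of 34 listed markers could be matched, with none of the 6 neuronal ones. Across the 12 replicate differences, r of Gabat with Cyp6t1, Cyp28d1 and Cyp309a1 was 0.53, 0.82 and 0.48, and r of to, a fat body gene under clock control, was −0.77, −0.74 and −0.62. The level of to was 2.74 to 14.6 CPM in replicate 1 and 2.62 to 14.0 in replicate 2. Cyp4g1, the P450 of oenocytes, ran from 0 to 99.1 CPM in replicate 1 and from 1.67 to 547 in replicate 2, with r of 0.11, 0.48 and 0.45. NimC1 of hemocytes reached at most 5.98 CPM, inaD of photoreceptors 60.9 to 178, and Indy and Tret1-1 of surface glia 14.1 to 40.6 and 89.6 to 208. In the same order of genes r was −0.53, −0.32 and −0.63 for Indy, −0.49, −0.15 and −0.51 for Tret1-1, 0.43, −0.13 and 0.27 for inaD, and 0.09, −0.21 and 0.19 for NimC1. The part of other cells in the covariation was not tested.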

How the data were processed

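The authors trimmed adapters with FastX, aligned single-end reads to BDGP6 with TopHat2 2.0.9 and deposited raw counts per gene from HTSeq 0.6.1, for 2 data sets of each of 24 libraries. The authors later updated gene identifiers to a FlyBase release. The counting mode, strand setting and the annotation counted on are not given in the sources used here. The counts of the 2 data sets were added up, genes with a mean of at least 20 counts were kept (9392), and counts were quantile normalized for JTK_CYCLE, written anew with 18 cosine templates. CPM and log2 CPM (pseudocount 0.5) used TMM factors. Tests used edgeR 4.0.16 in R 4.3.3, with limma 3.58.1 and DESeq2 1.42.0 as alternatives, and Benjamini-Hochberg adjustment over all genes. Standard errors are from least squares on log2 CPM. Covariation used 100000 permutations. The edgeR tests of the cosine, of days and of replicates were also run on simulated data, with outcomes not reported here.

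Names were paired with identifiers through tables of the study, of which the copy used is shortened and sorted by rhythm p, and positions come from RefSeq by symbol. The members and lists were chosen with earlier results of these data known. The named genes are the members, P450 genes within 20 kb of one, listed genes that passed a test, the 3 genes most like each member, and per and tim. Promoter motifs were not analysed here. Alternatives were other normalizations, count filters, tools, periods, data sets, a replicate block, and leaving out replicates, hours or single libraries. With 2 libraries per time point, precision is limited by the spread between replicates. SE and intervals of the cosine fits come from all departures of the libraries from the curve, those between days and in shape included. They cover only the variation among these 24 libraries.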

Additional observations from a re-analysis of the deposited data

How the results depend on the processing

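The number of the 7 genes inside the JTK_CYCLE limit, 4, became 2 without replicate 1 (Cyp6a17 and Cyp309a1) and 1 without replicate 2 (Cyp6a21), ran from 2 to 7 when 1 library was left out, with the extremes without the 12 h library of replicate 2 and without the 4 h library of replicate 1, and was 3 to 6 under the other alternatives, 6 with the replicate block (Cyp6a21 and Cyp6a23 added). Over all genes JTK_CYCLE gave 439 calls with the replicate block, 339 without replicate 1, 167 without replicate 2 and 150 with counts scaled to the library total, against 265. The cosine fit and the comparison of days gave 0 of the 7 under every alternative run, the replicate block included (0 and 0). Over all genes the cosine fit gave 55 calls with the replicate block and 81 with DESeq2, against 31, and the comparison of days gave 458 with DESeq2 and 352 without the 32 h library of replicate 2, against 0. Deviations of the same replicate number correlated by −0.74 to 0.76 over 66 pairs of time points, with a median of 0.20 and 43 above 0.1. The main tests of rhythm and of days held no term for the replicate, although many genes differed in level between the replicates. Their results with a replicate block are given above. Of the 2 calls between replicates, 1 was left with limma, with data sets 2 and 4 alone, without both 16 h libraries, and without the 16 h library of replicate 1 and the 28 h library of replicate 2, an alternative chosen after seeing the data, and 0 were left with genes of at least 1 count, and the number ran from 0 to 2 with 1 library left out, Cyp309a1 passing without either 36 h library. Over all alternatives the adjusted p of Cyp6a17 ran from 0.0080 to 0.108 and that of Cyp6a23 from 0.0219 to 0.201. The pairs called for covariation, 1, became 3 with quantile normalized counts and 0 with Spearman's rho, with data sets 2 and 4 alone, without both 28 h libraries and, chosen after seeing the data, without both 36 h libraries, and 0 to 2 with 1 time point left out. Uncalled differences near 0 changed sign. For Cyp6a23 between days, −0.03 became 0.0077 with DESeq2, 0.0117 with its size factors, 0.0050 with genes of at least 50 counts, 0.0194 with data sets 2 and 4 alone, 0.0143 without replicate 1, and −0.134 to 0.0487 with 1 library left out. Between replicates Cyp6a21 became −0.151 with limma, −0.0035 with genes of at least 1 count, and −0.0597 to 0.0878 with 1 library left out. Cyp28d1 became 0.0290 with limma. Cyp6t1 became 0.0171 without both 28 h libraries, 0.0512 without the 2 libraries that stand apart, and −0.226 to 0.0302 with 1 library left out. The peak time of Cyp309a1 moved from 12.7 to 5.63 h without replicate 2. The cause of these changes was not tested.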
